A study of Mus musculus with 4 samples.

Results

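ERK signalling is held in check by genes that it switches on itself. Growth factor receptors activate Ras, and Ras starts the kinase relay from Raf through MEK to the ERK MAP kinases, which carry the signal into the nucleus. Sprouty and Spred proteins act near the top of this relay, on receptor adaptors, Ras and Raf, whereas dual-specificity phosphatases of the MAP kinase phosphatase family act at the bottom, where they remove the activating phosphates from ERK, p38 or JNK. In skeletal muscle these brakes are known from the quiescence of satellite cells, from the choice of myoblasts between division and fusion, and from the stress responses of fibers.

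The 10 regulators followed here were *Spry1*, *Spry2*, *Spry4*, *Spred1*, *Spred2*, *Dusp1*, *Dusp4*, *Dusp5*, *Dusp6* and *Dusp10*. They were picked by name from the 24054 gene symbols of the expected count table, by exact match of the symbol, and the set was proposed when earlier results of these data were known. All 10 were listed and all 10 passed the filter on low counts, which left 13652 genes tested. Their expected counts were whole numbers in every library, whereas 15.7% of all values in the table were not.

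Soleus muscles came from female *mdx* mice, whose germline mutation in the dystrophin gene affects every cell of both groups. One group (mCDC, n = 2) was infused through the femoral vein once monthly with cardiosphere-derived cells, grown to passage 5 from the heart of a single mouse with intact dystrophin, and the other (vehicle, n = 2) was given the cell medium alone, IMDM, by the same route. Infusions began at 8 weeks of age and the muscles were taken at the 12-month endpoint. RNA isolated from whole muscle as total RNA was sequenced, with sources that differ on the library kit, and no healthy muscle, no time point before the endpoint and no measure of ERK phosphorylation was analysed here.

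The libraries held 22481391 to 27187425 expected counts. Summed markers of slow fibers, the main fiber type of the soleus, lay between 81365 and 99073 CPM (counts per library size, corrected with TMM factors), and none of the 9 was called different. Those of fast fibers lay between 30945 and 38302 CPM, and none of 9 was called. Within that list *Myh4* varied widely, at 2096 and 47.5 CPM in mCDC and at 163 and 411 CPM in vehicle replicates 1 and 2. Calls needed a difference of more than 1.5-fold together with p under 0.05, not adjusted, in edgeR's quasi-likelihood test, and by that rule 172 of 13652 genes were higher (1.26%) and 374 lower (2.74%) in mCDC muscles (209 and 293 after correction for transcript length and GC). With 1 library left out these counts ran from 112, without mCDC replicate 2, to 397, without mCDC replicate 1, for higher genes and from 236, without mCDC replicate 2, to 834, without vehicle replicate 1, for lower genes. After Benjamini-Hochberg adjustment no gene reached 0.05 in that test, while 947 genes (6.94%) had an unadjusted p under 0.05. At an adjusted p under 0.05, edgeR's exact test gave 58 genes (0.425%), its likelihood ratio test 66 (0.483%) and DESeq2 51 of 18132 (0.281%). The labels do not say that the 2 libraries of a group came from separate mice, so p-values measure the spread between these samples. In whole muscle, fewer cells of a type and less RNA per cell cannot be told apart.

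Before the levels, the sequence just upstream of the RefSeq start site is shown for the 4 genes that the results turn on and for which an upstream window was at hand. Each line gives the strand of the gene, 5′ to 3′, from the GRCm38.p6 assembly. Capitals mark only the motifs that the text after the lines says are marked in that line.
Dusp10, chr1:184034231-184034380, plus strand, bases -150 to -1: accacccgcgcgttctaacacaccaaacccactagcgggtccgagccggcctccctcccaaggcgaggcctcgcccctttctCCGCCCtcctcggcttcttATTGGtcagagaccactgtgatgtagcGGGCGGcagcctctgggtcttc
Spry2, chr14:105896820-105896939, minus strand, bases -120 to -1: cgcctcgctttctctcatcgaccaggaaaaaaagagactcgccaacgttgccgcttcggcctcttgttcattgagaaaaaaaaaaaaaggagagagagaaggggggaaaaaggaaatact
Dusp5, chr19:53529025-53529104, plus strand, bases -120 to -41: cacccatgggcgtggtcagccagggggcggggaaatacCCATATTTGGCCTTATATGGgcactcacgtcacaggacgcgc
Dusp1, chr17:26508573-26508672, minus strand, bases -200 to -101: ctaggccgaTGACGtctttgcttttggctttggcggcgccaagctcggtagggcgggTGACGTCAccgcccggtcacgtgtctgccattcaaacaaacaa

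The motifs marked differ between the 4 stretches because they were chosen for each line. In the *Dusp10* stretch the capitals mark a pair of GC boxes (GGGCGG, read on either strand) around a CCAAT box read on the other strand as ATTGG. In the annotation, 71 bases of this stretch are also exonic in 1700056E22Rik on the opposite strand, and all 80 bases of the *Dusp5* stretch are exonic in AC137853.2 on its opposite strand. The *Dusp10* and *Dusp1* stretches lie inside the spans annotated for these genes (chr1:184013302-184075636 and chr17:26505590-26562128), which reach farther upstream. Which start the soleus uses was not tested. In the *Dusp5* stretch the capitals mark only a pair of adjoining CArG boxes, the core of the serum response element. In the *Dusp1* stretch they mark only a cyclic AMP response element, or CRE (TGACGTCA), with a half-site (TGACG) farther upstream. Left in lower case in the *Dusp5* stretch are a GC box (-96 to -91) and a CRE half-site (-55 to -51). In the *Dusp1* stretch, GC boxes (-150 to -145 and -135 to -130) and an E-box (CACGTG, -126 to -121) were left so. The *Spry2* stretch, which runs into long tracts of A and G, held none of the motifs searched.

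Across the 250 bases before the start, 8 of the 10 genes had a window, and the same motifs were counted on both strands in 32851 mouse windows of that length. The CRE stood in 1.55% of all windows and, among the regulators, only in that of *Dusp1*, where 2 of its 3 half-sites lie inside the palindrome. A CArG box stood in 1.47% of all windows and, among the regulators, only in that of *Dusp5*. GC boxes, found in 32.7% of all windows, occurred in 6 of the 8 (*Dusp1*, *Dusp5*, *Dusp10*, *Spry1*, *Spred1* and *Spred2*), and CCAAT boxes, found in 33.9%, in those of *Dusp6*, *Dusp10* and *Spry1*. An E-box (CACGTG), found in 6.02% of all windows, also stood only in that of *Dusp1*. None of the 8 windows held an AP-1 site (TGANTCA, in 6.75% of all windows), an ETS site (CCGGAAG, in 6.91%), a TATA box (TATAAA, in 12.4%) or a glucocorticoid response element (AGAACA and TGTTCT set 3 bases apart, in 0.009%). A match of letters is a description and not evidence that a factor binds there.

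To determine whether the brakes on ERK differed between treated and control muscles, each regulator was read from the fit over all 13652 genes. 4 of the 10 were called higher in mCDC muscles (*Spry2*, *Spry4*, *Dusp5* and *Dusp10*), where 1.26% of all genes tested were, and none was called lower, where 2.74% of all genes were. Because the set was not chosen blind to these data, the contrast with all genes is a description. 5 of the 10 had an unadjusted p under 0.05, against 6.94% of all genes. In the same 5 genes, the 4 called and *Dusp1*, both mCDC libraries lay above both vehicle libraries, an order that 19.2% of all genes tested showed. The other 5 overlapped between the groups. The median log2 fold change of the 10 was 0.26, beside -0.01 for all genes tested. The smallest adjusted p among them was 0.270, for *Dusp10*, in edgeR's quasi-likelihood test with Benjamini-Hochberg adjustment over all genes, so no member passed 0.05 after adjustment, and an exact permutation test of 2 libraries against 2 cannot go below p = 0.333. The count of called regulators was 2 without mCDC replicate 2 and 2 without vehicle replicate 2, in each case *Spry2* and *Dusp10*, and it was 5 without mCDC replicate 1.

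**Figure D1:**
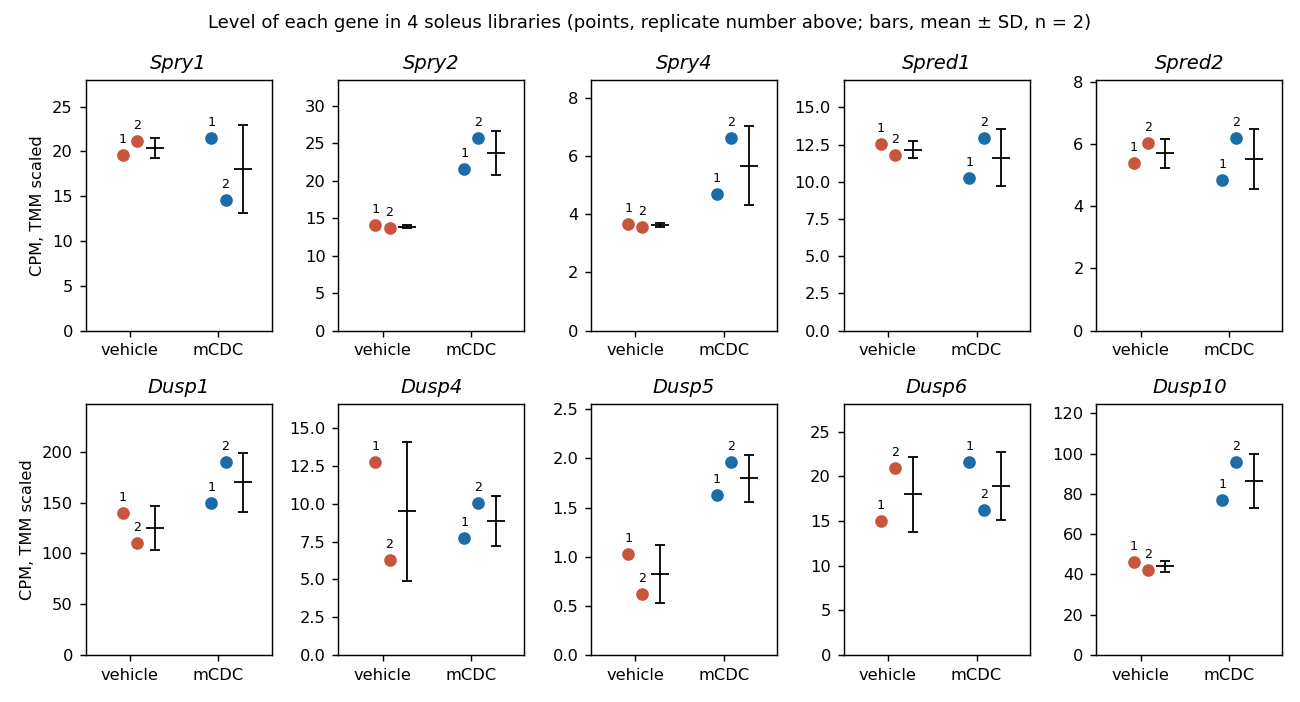
Level of each of the 10 regulators in the 4 soleus libraries, in TMM-scaled CPM, with 1 point a library and the mean ± SD (n = 2) beside it. Both mCDC points lie above both vehicle points for *Spry2*, *Spry4*, *Dusp1*, *Dusp5* and *Dusp10*, and the groups overlap in the other 5 panels.

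Among the Sprouty genes, whose products hold back the signal from activated receptors to Ras and Raf, *Spry2* differed most. *Spry2* (chr14:105891947-105896819, minus strand, GRCm38) stood at 21.6 and 25.8 CPM in mCDC replicates 1 and 2 and at 14.0 and 13.7 CPM in vehicle replicates 1 and 2. The vehicle libraries were nearly equal, and both treated muscles lay well above them. The mean level was 23.7 ± 2.93 CPM in mCDC and 13.9 ± 0.231 CPM in vehicle muscles (SD, n = 2), a log2 fold change of 0.77 with a standard error of 0.17 and an unadjusted p of 0.0017 in edgeR's quasi-likelihood test, the 43rd smallest of all genes. It was called higher with any 1 library left out, at log2 fold changes from 0.64 to 0.89, and under all 13 other settings tried. Its adjusted p was 0.544 in edgeR's quasi-likelihood test, 0.041 in its exact test and 0.118 in DESeq2, so that the side of 0.05 on which it fell depended on the tool.

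*Spry4*, a Sprouty that in many tissues is induced by fibroblast growth factors, showed the same order of libraries at a lower level. It stood at 4.70 and 6.62 CPM in mCDC replicates 1 and 2 and at 3.66 and 3.57 CPM in vehicle replicates 1 and 2. mCDC replicate 2 was the highest, and the vehicle libraries again lay close together. The log2 fold change was 0.64 ± 0.25 (SE), with an unadjusted p of 0.0357 and an adjusted p of 0.713 in edgeR's quasi-likelihood test. The call held in 12 of 13 other settings, the exception being DESeq2 with an unadjusted p of 0.0628. With 1 library left out it was called only without mCDC replicate 1 (0.87), and not without mCDC replicate 2 (0.38), vehicle replicate 1 (0.67) or vehicle replicate 2 (0.62).

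*Spry1*, the Sprouty that is known to mark quiescent satellite cells, did not share that order. It stood at 21.5 and 14.6 CPM in mCDC replicates 1 and 2 and at 19.7 and 21.2 CPM in vehicle replicates 1 and 2, so that the treated muscles held both the highest and the lowest level. The log2 fold change was -0.18 ± 0.21 (SE), with an adjusted p of 0.856 in edgeR's quasi-likelihood test, and it was 0.078 without mCDC replicate 2. *Spry1* (chr3:37639947-37644598, plus strand) is overlapped over 710 exonic bases by Gm42922 on the opposite strand, and whether the counting used strand is not stated. The ratio of *Spry2* to *Spry1*, in CPM per kilobase, was 1.33 and 2.35 in treated and 0.949 and 0.859 in control muscles, so *Spry2* was the more abundant of the pair in both treated muscles and the less abundant in both controls. Of 8 satellite cell and myoblast markers tested, 5 were not called and 3 were called higher, where 1.26% of all genes were. These were *Pax7* (log2 fold change 0.76), *Myod1* (0.84) and *Myog* (1.07). *Myod1* stood at 50.4 and 30.5 CPM in mCDC replicates 1 and 2 and at 19.1 and 26.0 CPM in vehicle replicates 1 and 2. *Myog* stood at 32.6 and 63.3 CPM and at 21.3 and 24.4 CPM, so the mCDC libraries differed in both genes. Summed levels of the list were 10939 and 12848 CPM in mCDC and 10872 and 10456 CPM in vehicle libraries, mostly from desmin, which fibers express too. The part of these markers in the levels of the Sprouty genes was not tested.

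The Spred genes encode membrane-bound relatives of the Sproutys, which bring neurofibromin to Ras at the membrane. *Spred1* stood at 10.3 and 13.0 CPM in mCDC and at 12.6 and 11.8 CPM in vehicle libraries 1 and 2, and *Spred2* at 4.85 and 6.21 CPM and at 5.38 and 6.04 CPM. In both genes the treated muscles lay on either side of the controls, with mCDC replicate 1 lowest and mCDC replicate 2 highest. The log2 fold changes were -0.07 ± 0.19 and -0.05 ± 0.23 (SE), with adjusted p of 0.947 and 0.971 in edgeR's quasi-likelihood test. Those errors leave room for differences of either sign, and a p above the threshold does not show equal levels. With a trend on length and base composition taken out, both values changed sign, to 0.12 for *Spred1* and 0.023 for *Spred2*.

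Among the inducible nuclear phosphatases, *Dusp1*, an immediate early gene whose product dephosphorylates p38 and JNK as well as ERK, was the most abundant. *Dusp1* stood at 149.5 and 189.9 CPM in mCDC replicates 1 and 2 and at 140.0 and 109.7 CPM in vehicle replicates 1 and 2. Both treated muscles were above both controls, but mCDC replicate 1 was only just above vehicle replicate 1. The log2 fold change was 0.44 ± 0.17 (SE), with an unadjusted p of 0.0351 and an adjusted p of 0.713 in edgeR's quasi-likelihood test, a 1.36-fold difference and thus short of the 1.5-fold that a call required. It was called without mCDC replicate 1 (0.61) and without vehicle replicate 1 (0.63), and it was 0.26 without mCDC replicate 2 and 0.28 without vehicle replicate 2.

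*Dusp1* is known as a target of handling stress and of glucocorticoids, and both kinds of gene were measured in these muscles. Of 9 genes of handling and heat stress, 5 of which are also listed as ERK-induced transcription factors, 8 had a log2 fold change above 0 and 2 were called higher, *Hspa1b* (0.86) and *Atf3* (1.65), where 1.26% of all genes were. Their summed level was 731 and 739 CPM in mCDC and 598 and 512 CPM in vehicle libraries. Of 15 glucocorticoid-responsive genes, 4 were called higher and 5 lower, where 1.26% and 2.74% of all genes were, and the median log2 fold change was -0.37. Both mCDC libraries lay below both vehicle libraries for 7 of the 15 and above them for 5, orders that 19.4% and 19.2% of all genes tested showed. Their summed level was 2695 and 2336 CPM in mCDC and 2260 and 2053 CPM in vehicle libraries, of which *Pdk4* alone made up 1583 and 1057 CPM and 769 and 894 CPM. *Nr3c1*, which encodes the glucocorticoid receptor, had a log2 fold change of -0.16 ± 0.17 (SE). The part of stress or hormone in the level of *Dusp1* was not tested.

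*Dusp5*, a nuclear phosphatase that acts on ERK and not on p38 or JNK, had the largest fold change of the 10 and the lowest level. It had 43 counts in each mCDC library and 27 and 17 counts in vehicle replicates 1 and 2, or 1.63 and 1.96 CPM against 1.03 and 0.619 CPM. The groups did not overlap, and all 4 values rest on few counts. The log2 fold change was 1.12 ± 0.38 (SE), with an unadjusted p of 0.0193 and an adjusted p of 0.684 in edgeR's quasi-likelihood test. It was called in 12 of 13 other settings, with DESeq2 (unadjusted p of 0.0604) as the exception, and stayed called without mCDC replicate 1 (1.25) or vehicle replicate 1 (1.53) but not without mCDC replicate 2 (0.99) or vehicle replicate 2 (0.79). *Dusp5* (chr19:53529109-53542431, plus strand) shares 547 exonic bases with AC137853.2 on the opposite strand, from which its reads cannot be told apart without strand.

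*Dusp4*, a nuclear phosphatase that acts on ERK and JNK, differed more between the vehicle libraries than between the mCDC libraries. It stood at 7.73 and 10.05 CPM in mCDC replicates 1 and 2 and at 12.8 and 6.26 CPM in vehicle replicates 1 and 2. The controls spanned the treated muscles, and vehicle replicate 1 was far above vehicle replicate 2. The log2 fold change of -0.10 ± 0.33 (SE), with an adjusted p of 0.958 in edgeR's quasi-likelihood test, ranged from -0.53 to 0.51 as single libraries were left out, the last without vehicle replicate 1.

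*Dusp6* encodes a cytoplasmic phosphatase specific to ERK and is among the genes most often read as a measure of ERK output. It stood at 21.6 and 16.2 CPM in mCDC replicates 1 and 2 and at 14.996 and 20.99 CPM in vehicle replicates 1 and 2. A higher and a lower library occurred in each group, at almost the same values. The mean level was 18.9 ± 3.82 CPM in mCDC and 17.99 ± 4.24 CPM in vehicle muscles (SD, n = 2), a log2 fold change of 0.07 ± 0.22 (SE), with an adjusted p of 0.954 in edgeR's quasi-likelihood test. With single libraries left out it ran from -0.15 to 0.34, so its sign was not settled.

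*Dusp10* encodes a phosphatase that prefers p38 and JNK to ERK, and it had the smallest p of the 10. *Dusp10* (chr1:184013302-184075636, plus strand) stood at 76.9 and 95.9 CPM in mCDC replicates 1 and 2 and at 46.0 and 42.1 CPM in vehicle replicates 1 and 2. The lowest treated muscle was far above the highest control. The mean level was 86.4 ± 13.4 CPM in mCDC and 44.1 ± 2.72 CPM in vehicle muscles (SD, n = 2), a log2 fold change of 0.97 ± 0.16 (SE) with an unadjusted p of 0.00025 in edgeR's quasi-likelihood test, the 12th smallest of all genes tested. It was called under all 13 other settings and with any 1 library left out, at log2 fold changes from 0.80 to 1.12. Its adjusted p over these fits ran from 0.00052 to 0.668, and it was 0.00067 in DESeq2, where that of edgeR's quasi-likelihood test was 0.270.

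**Figure D2:**
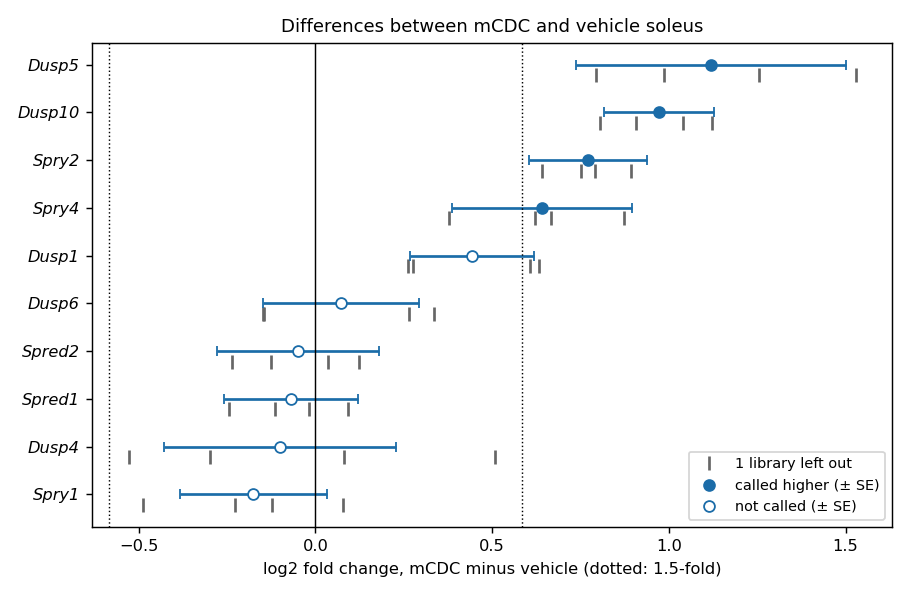
Log2 fold change of each regulator, mCDC minus vehicle, on the x axis, with ± SE from edgeR's quasi-likelihood test, filled for genes called higher, and grey ticks for the fits that each left out 1 library. All ticks of *Spry2* and *Dusp10* lie beyond the dotted 1.5-fold line, whereas those of *Spry1*, *Spred1*, *Spred2*, *Dusp4* and *Dusp6* fall on both sides of 0.

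The regulators did not move through the libraries alike. mCDC replicate 2 was the highest library for 7 of the 10, mCDC replicate 1 for *Spry1* and *Dusp6*, and vehicle replicate 1 for *Dusp4*. No regulator was highest in vehicle replicate 2, which was highest for 29.4% of all genes tested, and vehicle replicate 2 was the lowest library for 6, as it was for 27.2% of all genes tested. mCDC replicate 2 was highest for 28.1% of all genes tested. That library also had the smallest total count.

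The levels of the 10 were then set beside one another, in CPM per kilobase of the longest annotated transcript. In vehicle muscles *Dusp1* was first at a mean of 54.0 CPM per kilobase and *Dusp10* second at 15.8. *Spry1* (7.37), *Spry2* (6.65) and *Dusp6* (6.44) formed a middle group, in which only *Spry2* and *Dusp6* were neighbours whose vehicle libraries overlapped. *Dusp4* (3.47), *Spred1* (2.02) and *Spred2* (1.28) followed, and *Spry4* (0.76) and *Dusp5* (0.33) came last. In mCDC muscles *Dusp1* reached 73.4 and *Dusp10* 30.9, and *Spry2*, at 11.4, came next. The order in vehicle muscles depends in part on the transcript chosen: with the median transcript length *Dusp6* came directly after *Dusp10*, at 11.1 CPM per kilobase.

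**Figure D3:**
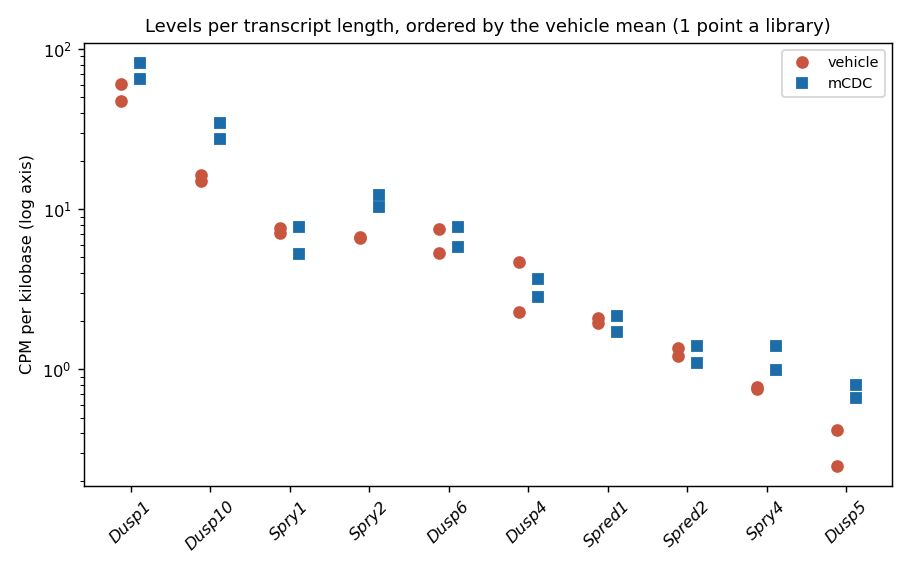
Level of each regulator in CPM per kilobase of its longest annotated transcript, on a log axis, with 1 point a library, ordered from left to right by the vehicle mean. *Dusp1* and *Dusp10* stand above the rest in both groups, and *Spry4* and *Dusp5* lie lowest.

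Grouped by the step at which they act, the summed levels separated the 2 treatments in some classes and not in others. The 3 Sprouty genes summed to 19.1 and 19.0 CPM per kilobase in mCDC and to 14.6 and 14.97 in vehicle libraries, and the phosphatases of p38 and JNK (*Dusp8*, *Dusp10* and *Dusp16*) to 49.8 and 52.7 against 35.2 and 29.8. The inducible nuclear phosphatases (*Dusp1*, *Dusp2*, *Dusp4* and *Dusp5*) summed to 68.6 and 87.0 in mCDC and to 65.9 and 50.6 in vehicle libraries, a sum made up mainly of *Dusp1*. In these 3 classes every treated muscle was above every control, by the least in the nuclear phosphatases. The Spred genes, at 3.47 and 4.18 against 4.10 and 4.17, and the cytoplasmic ERK phosphatases (*Dusp6*, *Dusp7* and *Dusp9*), at 11.8 and 9.11 against 8.98 and 12.3, overlapped between the groups. *Dusp1* and *Dusp10* together supplied 73.6% and 78.0% of the summed level of the 10 in mCDC and 73.1% and 68.8% in vehicle libraries.

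Of the nearest relatives of the 10, 5 were tested and none was called, a set too small to set against the 1.26% and 2.74% of all genes called higher and lower. *Spry3* was not among the symbols used here, and *Spred3* stood at 2.73 and 2.56 CPM in mCDC and 3.28 and 3.46 CPM in vehicle libraries, below both controls but not called (log2 fold change -0.35 ± 0.25, SE). Of the other 4 MAP kinase phosphatases tested, with a median log2 fold change of -0.05, *Dusp8*, a phosphatase of p38 and JNK like *Dusp10*, came nearest at 75.8 and 60.8 CPM in mCDC and 57.7 and 46.2 CPM in vehicle libraries. Both treated muscles were above both controls, by little in the closest pair (log2 fold change 0.40 ± 0.17, with an unadjusted p of 0.0491 in edgeR's quasi-likelihood test). *Dusp16*, the third of that kind, had 0.04 ± 0.18, *Dusp2* had -0.15 ± 0.46 and *Dusp7* had -0.20 ± 0.21. *Dusp9* had 0 to 3 counts per library and was not tested. The ratio of *Dusp10* to *Dusp16*, in CPM per kilobase, was 4.27 and 6.03 in mCDC and 2.44 and 2.98 in vehicle libraries.

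In the relay on which these brakes act, 57 genes were tested in 4 lists. None was called higher and 2 (3.51%) were called lower, shares near the 1.26% and 2.74% of all genes. Of 17 Ras proteins and kinases of the ERK cascade, none was called, and the median log2 fold change was 0.01. The log2 fold change was -0.15 ± 0.16 (SE) for *Mapk3*, which encodes an ERK, and 0.21 ± 0.14 and 0.19 ± 0.13 for *Map2k1* and *Map2k2*, which encode the MEK kinases. Of 17 exchange factors, adaptors and GTPase activators, 1 was called lower, *Rasgrp3*, an exchange factor for Ras and Rap, at -0.60, and the median was -0.23, or -0.19 to -0.067 with 1 library left out. Of 12 other negative regulators of Ras and ERK, none was called, with a median of 0.03. Of 11 p38 and JNK kinases, the MAP kinases that *Dusp10* acts on and the kinases above them, 1 was called lower, *Map2k6*, at -0.71, with a median of 0.03. The call of *Rasgrp3* was lost without mCDC replicate 2 (-0.39) or vehicle replicate 1 (-0.53), and so was that of *Map2k6* (-0.37 and -0.45).

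At the head of the relay stand the growth factors and their receptors. Of 13 genes of fibroblast growth factors and their receptors none was called, with a median of -0.03, *Fgfr1* at -0.19 ± 0.13 (SE) and *Fgf2*, at 6 to 21 counts per library, at -0.22 ± 0.71. Of 21 genes of the EGF, HGF, VEGF and PDGF families and of insulin-like growth factor signalling, 2 were called higher (9.52%) and 3 lower (14.3%), where 1.26% and 2.74% of all genes were, with a median of -0.04. *Hbegf*, a ligand of the EGF receptor, stood at 19.4 and 34.4 CPM in mCDC and at 7.17 and 6.66 CPM in vehicle libraries. Both treated muscles were far above both controls (log2 fold change 1.96 ± 0.27, SE), and *Hbegf* was called with any 1 library left out, whereas its receptor gene *Egfr* was at 0.02 ± 0.26. *Pdgfb* was called higher (1.04), though not without mCDC replicate 2 (0.48) or vehicle replicate 1 (0.87).

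The receptors called lower moved with 1 control library. They were *Flt1* (-0.86), *Flt4* (-0.74) and *Pdgfra* (-0.74), receptors of endothelial, lymphatic and fibroblast-like cells. Without vehicle replicate 2 their log2 fold changes were -0.17, -0.37 and -0.23, without mCDC replicate 2 they were -0.66, -0.71 and -0.57, and none was called in either case, nor was *Flt4* without mCDC replicate 1 (-0.77). Summed markers of endothelial cells stood at 157 and 124 CPM in mCDC and at 132 and 284 CPM in vehicle libraries, and those of fibroblasts at 737 and 594 CPM and at 729 and 1133 CPM. Vehicle replicate 2 was thus the highest library for both lists, and the lowest for 6 of the 10 regulators, and the part of cell makeup in the levels of the regulators was not tested.

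At the output end, 28 genes were tested from a list of transcription factors that ERK induces or works through. Of these, 2 were called higher (7.14%) and 1 lower (3.57%), where 1.26% and 2.74% of all genes were. Their median log2 fold change was 0.10. *Fosl1*, an AP-1 subunit, had 24.8 and 76.6 expected counts in mCDC and 4.26 in each vehicle library (3.83 ± 0.82, SE). *Atf3*, a stress-induced factor, was at 1.65 ± 0.41, with 21.6 and 60.0 CPM in mCDC and 14.0 and 11.8 CPM in vehicle libraries. Both were called with any 1 library left out. *Klf6* was called lower (-0.63), but not without mCDC replicate 1 (-0.43) or vehicle replicate 1 (-0.36). The immediate early genes most used as ERK readouts were not called: *Fos* was at 0.04 ± 0.19, and *Egr1*, at 37.8 and 122 CPM in mCDC and 25.3 and 73.3 CPM in vehicle libraries, at 0.70 ± 0.58. The second library of each group held the most *Egr1*, and its log2 fold change was -0.38 without mCDC replicate 2, whereas it was called higher without mCDC replicate 1 (1.31) or vehicle replicate 2 (1.66).

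Of 6 transcripts other than the regulators that are used to score MAP kinase activity, 1 was called higher and 1 lower, with a median of 0.13. The set is too small to set against the 1.26% and 2.74% of all genes called higher and lower. *Phlda1* stood at 23.0 and 46.0 CPM in mCDC and at 22.4 and 14.8 CPM in vehicle libraries (log2 fold change 0.89 ± 0.33, SE). It was not called without mCDC replicate 2 (0.31) or vehicle replicate 2 (0.62). *Epha4*, an ephrin receptor at 25 to 53 counts, was called lower at -0.83, and not without mCDC replicate 1 (-0.77), mCDC replicate 2 (-0.88) or vehicle replicate 1 (-0.78). *Etv5*, an ETS factor that follows FGF signalling, was at 0.14 ± 0.16 and overlapped between the groups.

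**Figure D4:**
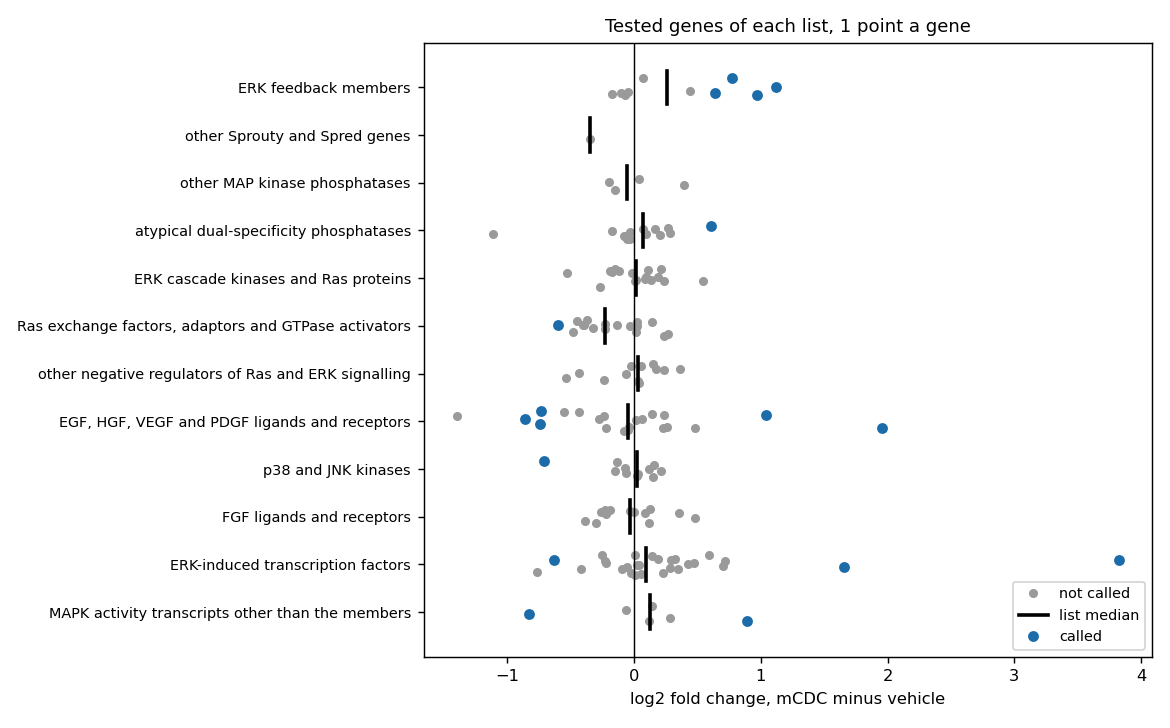
Log2 fold change, mCDC minus vehicle, of each tested gene of the 10 regulators and of 11 other lists of the pathway, with blue points for genes called and a bar at the median of each list. The median of the regulators lies at 0.26 with 4 called genes, all to the right of 0, and those of the other lists with more than 1 gene lie between -0.23 and 0.13.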

How the data were processed

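The authors built libraries from soleus RNA, sequenced single-end reads on an Illumina instrument, aligned them against UCSC transcripts with Bowtie 2 and estimated gene levels with RSEM. The deposited values are RSEM's expected counts for each symbol, not normalized. The submitters' processing notes name Bowtie2 2.1.0, RSEM 1.2.15 and the mm10 build. The labels name a stranded mRNA kit and the methods of the study another kit (xGen), and the strand setting of the counting is not given in the sources used here.

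Rounded to whole numbers, the counts were fitted without covariates in edgeR 4.0.16 (R 4.3.3) with filterByExpr (minimum count 10), TMM scaling and the quasi-likelihood F-test (legacy = FALSE), with Benjamini-Hochberg adjustment over all 13652 genes tested. Calls used the thresholds of the study (over 1.5-fold, unadjusted p under 0.05). CPM values are TMM scaled. Standard errors are the absolute log2 fold change over the square root of F. The procedure was tested on simulated data. Alternatives were DESeq2 1.42.0, limma-voom 3.58.1, other edgeR tests, scalings and filters, unrounded counts, libraries thinned to equal size, the replicate number as a term (replicate block), a correction for transcript length and GC, and fits without 1 library. Lengths came from GENCODE transcripts and upstream sequences from RefSeq, both on GRCm38, and 23666 of 24054 symbols had a length. The library totals differed by under 1.5-fold, and genes with few counts carry the widest errors.

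The members and lists were chosen with earlier results of these data known. The genes named are the 10 members, their nearest relatives, the called genes of each pathway list and a short list of pathway genes named whether or not they were called, except that 1 gene of that list is not reported here. No p was computed over a list. Marker lists were used only to give levels, calls, medians and library orders beside results.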

Additional observations from a re-analysis of the deposited data

How the results depend on the processing

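*Spry2* and *Dusp10* were called higher under every setting run, with any 1 library left out, and no regulator was called lower under any. DESeq2 called 2 of the 10, these 2, and missed *Spry4* (0.66) and *Dusp5* (1.13) by their p alone, since both log2 fold changes exceeded 1.5-fold. With transcript length and GC corrected for, *Spred1* (0.12), *Spred2* (0.023) and *Nr3c1* (0.033) changed sign, and so did *Egfr* with upper quartile scaling (-0.015). The cause was not tested in any of these. With the median in place of the longest transcript, the vehicle level in CPM per kilobase was 8.23 for *Spry1*, 3.26 for *Spred1*, 2.002 for *Spred2*, 73.5 for *Dusp1*, 11.1 for *Dusp6* and 25.1 for *Dusp10*, because the lengths divided by are shorter. On library totals, without TMM factors, the ratio of mean CPM was 1.86 for *Dusp10* (1.96 with TMM) and 0.992 for *Dusp6* (1.05).

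No pairing by replicate number showed over all genes: the deviations of libraries with the same number from their group means had a correlation of -0.0388. A pairing that touched only some genes would not show in that value. With the replicate number as a block, 172 genes were called higher, 308 lower and 4 regulators higher, and no call of a regulator changed. The block ended the calls of *Flt1* (-0.76), *Pdgfra* (-0.69) and *Phlda1* (0.84), and *Egr1* (0.66) was called higher with it.

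Leaving out 1 library at a time leaves a group with a lone library, which is then assumed to vary like the other group. The genes called higher ran from 112 to 397, those called lower from 236 to 834 and the regulators called from 2 to 5. Log2 fold changes ran from -0.49 to 0.078 for *Spry1*, 0.38 to 0.87 for *Spry4*, -0.24 to 0.093 for *Spred1*, -0.24 to 0.12 for *Spred2*, 0.26 to 0.63 for *Dusp1*, -0.53 to 0.51 for *Dusp4*, 0.79 to 1.53 for *Dusp5* and -0.15 to 0.34 for *Dusp6*. Among the other genes followed through these fits, which were not all of those named, the sign changed for *Dusp2* (-0.47 to 0.29), *Dusp7* (-0.39 to 0.025), *Dusp16* (-0.15 to 0.26), *Mapk3* (-0.29 to 0.018), *Fgf2* (-0.89 to 0.97), *Egfr* (-0.21 to 0.20), *Fos* (-0.14 to 0.26), *Egr1* (-0.38 to 1.66) and *Nr3c1* (-0.32 to 0.032). Medians of log2 fold changes ran from 0.26 to 0.57 for the 10 regulators, -0.12 to 0.13 for the other MAP kinase phosphatases, -0.036 to 0.065 for the atypical phosphatases, -0.027 to 0.099 for the ERK cascade, -0.19 to -0.067 for exchange factors, adaptors and GTPase activators, -0.14 to 0.092 for the other negative regulators, -0.21 to 0.068 for the EGF, HGF, VEGF and PDGF genes, -0.079 to 0.086 for p38 and JNK kinases and -0.17 to 0.073 for FGF genes. For the transcription factors that ERK induces or works through they ran from 0.036 to 0.26.

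With 2 libraries a group, single genes of few counts carry wide errors, such as *Dusp5* (17 to 43 counts), *Fgf2* (6 to 21 counts) and *Fosl1* (4.26 expected counts in each vehicle library), and smaller differences than those called may not have been detectable at this depth.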

Other observations

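The atypical dual-specificity phosphatases, which lack the kinase-binding domain of the MAP kinase phosphatases, were measured in the same libraries. Of 13 tested, 1 was called higher in mCDC muscles and none lower, where 1.26% and 2.74% of all genes were, and the median log2 fold change was 0.07. The gene called was *Dusp27*, whose product has no phosphatase activity and is needed for the order of muscle sarcomeres. It stood at 244.9 and 341.3 CPM in mCDC replicates 1 and 2 and at 214.4 and 171.1 CPM in vehicle replicates 1 and 2, with a log2 fold change of 0.60 ± 0.19 (SE), and it was not called without mCDC replicate 2 (0.35), without vehicle replicate 2 (0.45) or with upper quartile scaling (0.58). *Dusp13*, an atypical phosphatase of muscle and testis, stood at 98.2 and 108.9 CPM in mCDC and at 84.1 and 95.6 CPM in vehicle libraries, above both controls by little and not called (log2 fold change 0.21). *Dusp3*, at 97.9 and 100.4 CPM against 113.9 and 95.8 CPM, overlapped between the groups.

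Genes of the circadian output follow the hour at which a muscle is taken. Of 10 such genes, 5 were called lower and none higher in mCDC muscles, where 2.74% and 1.26% of all genes were, with a median log2 fold change of -0.58 and summed levels of 757 and 884 CPM in mCDC and of 924 and 991 CPM in vehicle libraries. *Nr1d1*, not called, had both mCDC libraries above both vehicle libraries (log2 fold change 0.46). The hour of sampling is not stated in the sources used here, and its part in the levels of the 10 regulators was not tested.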
